A study of Mus musculus with 6 samples.

Results

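The genes described here are 10 components of the signalling module that sits directly under RANK, the receptor for RANKL. They are the adaptors Traf1, Traf2, Traf3, Traf5 and Traf6, the kinase gene Map3k7 with its binding partners Tab1 and Tab2, and the deubiquitinase genes Tnfaip3 and Cyld. They were chosen by name, as were the other gene lists used below, with earlier results of these data known. Comparisons of their counts and medians with all genes are therefore descriptions and not tests. All 10 were found among the 24940 genes of the deposited expression table and passed the filter on low values. Bone marrow-derived macrophages (BMMs), macrophages that M-CSF expands out of mouse marrow and that can become osteoclasts, were cultured for 3 days in 3 conditions with 2 RNA-seq libraries each. The -R cells received M-CSF (30 ng/mL) alone, the +R cells also received RANKL (100 ng/mL), and the R+LE cells received M-CSF, RANKL and LE (10 μg/mL), a methanol extract of the leaves of Abeliophyllum distichum. By label the mice were C57BL/6 and 6 to 8 weeks old, whereas the methods of the study describe male ICR mice. LE is a mixture of compounds, and no culture with LE but without RANKL was analysed here.

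TNF receptor-associated factors (TRAFs) bind the cytoplasmic tails of TNF receptor family members, and TRAF6 is the adaptor through which RANK signals in osteoclast precursors. TRAF6 is a ubiquitin ligase, and the ubiquitin chains it builds are bound by TAB2, which brings the kinase TAK1, the product of Map3k7, into the complex. TAK1, with TAB1 as its activating partner, then phosphorylates the IKK and MAP kinase kinase enzymes that lead to NF-κB, JNK and p38. TRAF2 and TRAF3 together hold the alternative NF-κB pathway off by keeping the kinase NIK low, and TRAF1, which lacks the RING domain of the other TRAFs, pairs with TRAF2. The deubiquitinases A20, encoded by Tnfaip3, and CYLD take these ubiquitin chains apart and act as brakes.

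The regulatory sequence in front of these genes was read first, because NF-κB and AP-1 are the factors that this module feeds. The 250 bases before the start of the counted transcript were available for 9 of the 10 genes (RefSeq, GRCm38.p6, the build that mm10 names), and their starts are those of the deposited table. Each was searched on both strands for the consensus site of NF-κB, called the κB consensus here, and for the AP-1 site TGANTCA. The κB consensus was found for 4 of the 9 genes and for 3.90% of 32817 such windows in the mouse genome, and TGANTCA for 1 of the 9 genes and for 6.75% of the windows. A match is only a run of letters, and nothing about binding was measured. The stretches that hold a match are printed below 5′ to 3′ on the strand of the gene, outside annotated exons, with the matching letters in capitals, and none of the matches overlap. A part of the Traf1 window is printed because Traf1 rose the most with RANKL. It is the 150 bases from 175 to 26 before the start, and the whole window held neither motif.
Tnfaip3, chr10:19015501-19015547, minus strand: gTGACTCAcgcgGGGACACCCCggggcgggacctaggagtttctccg
Tnfaip3, chr10:19015411-19015447, minus strand: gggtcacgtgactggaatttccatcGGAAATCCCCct
Cyld, chr8:88696848-88696907, plus strand: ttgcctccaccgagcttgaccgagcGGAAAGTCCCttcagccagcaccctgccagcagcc
Traf3, chr12:111166335-111166369, plus strand: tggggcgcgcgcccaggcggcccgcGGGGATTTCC
Map3k7, chr4:31963990-31964049, plus strand: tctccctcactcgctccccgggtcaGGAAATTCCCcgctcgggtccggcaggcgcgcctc
Traf1, chr2:34961798-34961947, minus strand: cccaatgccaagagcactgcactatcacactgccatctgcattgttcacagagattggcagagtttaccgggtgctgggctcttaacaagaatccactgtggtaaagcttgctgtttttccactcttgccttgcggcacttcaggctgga
In the first Tnfaip3 stretch the AP-1 letters lie 136 to 130 bases before the start and the κB letters 125 to 116 bases before it. The other matches lie 12 to 3 bases before the start of Tnfaip3, 155 to 146 before that of Cyld, 10 to 1 before that of Traf3 and 92 to 83 before that of Map3k7. Those of Map3k7 and Cyld and the one nearest the start of Tnfaip3 read as the consensus on the opposite strand. The windows of Traf2, Traf5, Traf6 and Tab2 held neither motif. Annotated exons cover 110 bases of the window of Tnfaip3, 107 of that of Tab2 and 10 of that of Map3k7. Those bases were searched as well.

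Expression was deposited in RPKM, a read count scaled by transcript length and library depth, and the depth recovered from the steps between low values was 29390190 to 34846388 mapped reads per library. The Rn45s entry, which covers a ribosomal RNA precursor, took a larger share of gene reads in the RANKL-treated libraries (10.9% to 13.5%) than in -R (4.97% to 6.83%). The cells carried the markers of their labels. All 8 osteoclast markers examined rose in +R against -R and fell again in R+LE, with a summed level of 40.4 and 41.4 RPKM in the -R libraries, 1985 and 1747 in +R and, with LE added, 356.4 and 311.0. Of 6 macrophage markers, 5 fell in +R, and the 3 of 8 granulocyte or progenitor markers that passed the filter fell too. Of 8 stromal or osteoblast markers, 2 passed the filter, and neither passed the test in +R against -R, while 1 of them, Col1a2, fell in R+LE against +R, and both fell in R+LE against -R. Of the granulocyte or progenitor markers, Cd34 was higher in R+LE (2.53 and 2.05 RPKM) than in +R (0.929 and 0.849). The summed level of the stromal list was 7.31 to 15.6 RPKM and that of the granulocyte or progenitor list 1.65 to 29.0 RPKM over the 6 libraries. Lymphocyte markers, which matter here because lymphocytes also express Traf1, Traf5 and Tnfaip3, stayed under 1 RPKM in every library for all 8 genes, with Cd3e at 0 throughout. Their summed level was 1.57 and 1.74 RPKM in -R, 0.244 and 0.501 in +R and, with LE added, 0.178 and 0.443. The 5 dendritic cell markers other than Siglech were also under 1 RPKM in every library, and Siglech reached 1.10 RPKM in 1 -R library. In bulk RNA, a change in the share of cells that express a gene and a change in its RNA per cell cannot be told apart.

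RANKL raised the transcripts of the adaptors Traf1, Traf2 and Traf3 and both deubiquitinases, and did not detectably change Traf5, Traf6 or the TAK1 complex. Of the 10 genes, 5 had an adjusted p-value below 0.05 in +R against -R (limma on log2(RPKM + 0.5) with Benjamini-Hochberg adjustment over 11595 genes), and all 5 were higher in +R. Of all genes tested, 45.4% passed the same threshold (23.9% as higher and 21.5% as lower in +R), so the 5 of 10 that passed in either direction is near the background. With a fold change of at least 2 required as well, 4 of the 10 passed, all higher, against 6.58% of all genes called higher. Cyld, the remaining gene with an adjusted p below 0.05, lay at this limit, with a ratio of mean RPKM of 2.05 but a log2 fold change of 0.97. The median log2 fold change of the 10 genes was 0.62, beside 0.05 for all genes tested. The 2 libraries of +R lay above both libraries of -R for 7 of the 10 genes and below them for 0, where 40.3% and 35% of all genes tested did so.

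**Figure D1:**
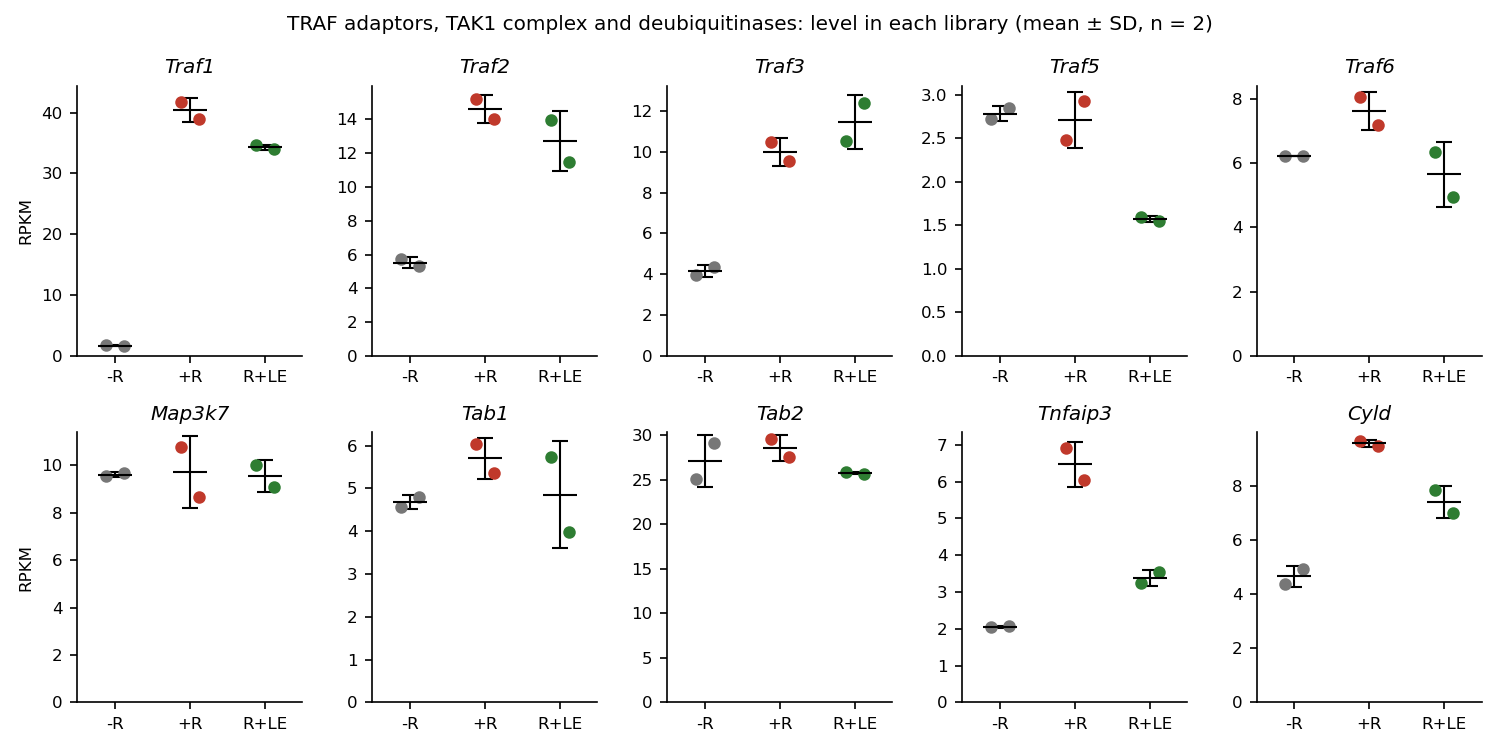
Level of each gene in RPKM (vertical axes, each starting at 0) in the -R, +R and R+LE libraries. Points are libraries, and the horizontal line and bars are the mean and SD of the 2 libraries. Traf1 stands near 0 in -R and above 30 RPKM in both RANKL-treated groups, Tnfaip3 rises in +R and comes down in R+LE, and the 3 groups overlap for Map3k7.

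Traf1 had the largest change of the module. This adaptor (NM_001326601, chromosome 2 of mm10 from 34941750 to 34961772) was at 1.75 and 1.61 RPKM in the -R libraries, 41.8 and 39.0 RPKM in +R, and 34.6 and 34.0 RPKM in R+LE. The 3 groups did not overlap, with -R lowest and +R highest. The mean was 1.68 ± 0.102 RPKM in -R, against 40.4 ± 1.98 in +R and, with LE, 34.3 ± 0.413 (SD, n = 2 each). The mean in +R was 24.1-fold that in -R. The log2 fold change of 4.23 ± 0.13 (SE, adjusted p = 3.15e-12 in limma) placed Traf1 at rank 26 of 11595 genes by rise. The libraries held 193 to 4814 reads of it. With LE the log2 fold change was -0.23 (95% confidence interval -0.51 to 0.05, adjusted p = 0.34 in limma), although both libraries were lower than those of +R. In R+LE the mean was 20.5-fold that in -R (adjusted p = 1.91e-11 in limma). By the size of that last difference it ranked 10 among all genes tested.

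Traf2, the ubiquitin ligase adaptor of TNF receptors, was at 5.74 and 5.29 RPKM in -R, 15.2 and 14.0 in +R and, with LE added, 14.0 and 11.5. Both RANKL-treated groups lay above -R, and both R+LE libraries lay below both +R libraries, for R+LE replicate 1 only just. RANKL changed it by 1.33 ± 0.14 on the log2 scale (SE, adjusted p = 2.13e-06 in limma), and the log2 fold change for LE was -0.20 (95% confidence interval -0.51 to 0.10, adjusted p = 0.464). It spans chromosome 2 from 25517982 to 25546940.

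Traf3, the adaptor that restrains NIK and the alternative NF-κB pathway, was at 3.97 and 4.37 RPKM in -R, 10.5 and 9.53 in +R and, with LE added, 10.5 and 12.4. It was the only member whose mean was higher in R+LE than in +R, at 11.5 ± 1.32 against 10.0 ± 0.682 RPKM (SD, n = 2 each). That difference did not pass the test, with a log2 fold change of 0.18 (95% confidence interval -0.12 to 0.49, adjusted p = 0.512 in limma). The rise with RANKL was 1.17 on the log2 scale (standard error 0.14, adjusted p = 7.54e-06). Against -R, the log2 fold change in R+LE was 1.35 (adjusted p = 2.75e-06).

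Traf6, the adaptor that RANK uses most directly, was at 6.22 and 6.21 RPKM in -R, 8.03 and 7.18 in +R and, with LE added, 6.35 and 4.94. Both +R libraries were above the other 4. The differences were small, with a log2 fold change of 0.27 with RANKL (95% confidence interval -0.05 to 0.59, adjusted p = 0.156 in limma) and -0.41 with LE (95% confidence interval -0.73 to -0.09, adjusted p = 0.099). The fall with LE passed when recovered reads were fitted with voom in limma (adjusted p = 0.033) and without R+LE replicate 1 (0.032), and did not pass under the other alternatives.

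Traf5, which encodes an adaptor that links TNF receptor family members to NF-κB, was the lowest of the 5 adaptors in the RANKL-treated cells. It was at 2.73 and 2.85 RPKM in -R, 2.48 and 2.93 in +R and, with LE added, 1.60 and 1.55, so the R+LE libraries lay below the other 4 while -R and +R overlapped. Its log2 fold change was -0.04 with RANKL (95% confidence interval -0.38 to 0.31, adjusted p = 0.871 in limma), -0.63 with LE (standard error 0.16, adjusted p = 0.0182) and -0.66 in R+LE against -R (adjusted p = 0.00498). The fall with LE rested on 160 and 189 reads in the +R libraries and 106 and 99 in R+LE, and its adjusted p was 0.101 without a filter on low values, 0.166 without +R replicate 2 and 0.067 without R+LE replicate 2. Over all annotated transcripts of Traf5, its exons overlap those of Gm26879 on the opposite strand over 205 bp. They overlap those of Mir3473c on the same strand over 65 bp. Whether these bases lie in the counted transcript was not checked. Since the counting ignored strand, any shared reads were not separated. Within the span of the counted transcript, no exon of the other 9 genes overlaps an exon of another gene in the GENCODE annotation used here.

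The balance among the 5 Traf genes differed between -R and both RANKL-treated groups. Shares are given without a test and cover these 5 only, leaving out Traf7, which was at 11.1 to 13.6 RPKM in the 6 libraries, and Traf4, at 0.543 to 1.007 RPKM. RPKM is per length, so levels are set side by side between genes here, but only approximately. Each level rests on 1 counted transcript, which for Traf1 has 3754 bases against 8819 in the exons of all its annotated transcripts. Traf1 made up 8.57% and 7.90% of the summed RPKM of the 5 Traf genes in the -R libraries, 53.6% and 53.6% in +R and, with LE added, 51.6% and 52.9%. Traf6, which held the largest share of the 5 in -R at 30.5% and 30.6%, came to 10.3% and 9.89% in +R and, with LE added, 9.47% and 7.67%. The share of Traf5 went from 13.4% and 14.0% in -R to 3.18% and 4.04% in +R and, with LE added, 2.39% and 2.41%. The sum itself was 20.4 and 20.3 RPKM in -R, 78.0 and 72.7 in +R and, with LE added, 67.1 and 64.4. A rise of Traf1 lowers the shares of the other Traf genes even where their own levels do not fall. Mean Traf6 was 6.21 RPKM in -R, 7.61 in +R and, with LE, 5.64. Mean Traf5 was 2.785, 2.709 and 1.575 RPKM in the same order. The ratio of the RPKM of Traf1 to that of its partner Traf2 was 0.305 and 0.303 in -R, 2.75 and 2.77 in +R and, with LE added, 2.48 and 2.97.

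**Figure D2:**
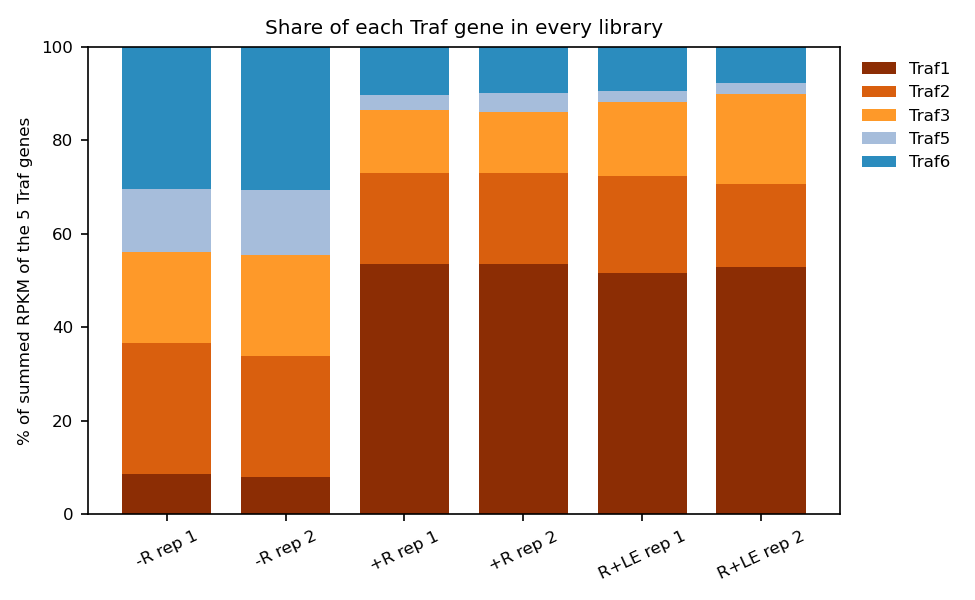
Share of each Traf gene in the summed RPKM of Traf1, Traf2, Traf3, Traf5 and Traf6 (vertical axis, percent) for each of the 6 libraries (horizontal axis). Traf1 takes 7.90% to 8.57% in -R and 51.6% to 53.6% in the 4 RANKL-treated libraries, and the shares of Traf5 and Traf6 are smaller there. The summed RPKM is larger in those libraries, so a smaller share is not by itself a lower level.

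No change was detected in the TAK1 complex. Map3k7, which encodes the kinase TAK1, was at 9.53 and 9.67 RPKM in -R, 10.8 and 8.65 in +R and, with LE added, 10.0 and 9.08, with all 3 groups overlapping. Its log2 fold change was 0.01 with RANKL (95% confidence interval -0.30 to 0.32) and -0.02 with LE (95% confidence interval -0.33 to 0.29), with adjusted p-values of 0.967 and 0.967 in limma. Tab2, the ubiquitin-binding partner, was at 25.1 and 29.2 RPKM in -R, 29.6 and 27.5 in +R and, with LE added, 25.8 and 25.7. Its log2 fold change was 0.08 with RANKL (95% confidence interval -0.22 to 0.37) and -0.15 with LE (95% confidence interval -0.44 to 0.15). Tab1, the activating partner, was at 4.57 and 4.79 RPKM in -R, 6.04 and 5.37 in +R and, with LE added, 5.73 and 3.97, so that the R+LE libraries lay on either side of both -R libraries. Its log2 fold change was 0.26 with RANKL (95% confidence interval -0.09 to 0.61) and -0.23 with LE (95% confidence interval -0.58 to 0.12). None of the 3 genes passed the test in any of the 3 comparisons, and the intervals leave room for changes of up to 0.61 on the log2 scale. Tab2 exceeded Map3k7 by 2.58-fold to 3.18-fold per length in every library, and Tab1 by 4.51-fold to 6.47-fold.

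The brakes rose with RANKL, and only 1 of them was found lower with LE. Tnfaip3, which encodes A20 (chromosome 10 from 19000910 to 19015410), was at 2.04 and 2.08 RPKM in -R, 6.91 and 6.04 in +R and, with LE added, 3.24 and 3.54. The 3 groups did not overlap, and R+LE lay between -R and +R. The mean was 3.14-fold higher in +R than in -R, or 1.44 ± 0.15 on the log2 scale (SE, adjusted p = 1.32e-06 in limma). With LE it fell by 0.84 on the log2 scale (standard error 0.15, adjusted p = 0.00135), which was rank 304 of 11595 genes by fall, and in R+LE it was still 0.60 above -R (adjusted p = 0.00549). It passed the test of R+LE against +R under every alternative tried, with log2 fold changes from -0.93 to -0.75.

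Cyld (chromosome 8 from 88697028 to 88751946) was at 4.40 and 4.95 RPKM in -R, 9.68 and 9.50 in +R and, with LE added, 7.85 and 7.00, again without overlap and with R+LE in between. The rise with RANKL was 0.97 ± 0.14 on the log2 scale (SE, adjusted p = 4.01e-05 in limma), which is just under 2-fold on this scale. The ratio of mean RPKM was 2.05, and the log2 fold change ran from 0.89 to 1.04 under the alternatives. In R+LE against -R the log2 fold change was 0.61 (adjusted p = 0.00292 in limma). With LE it was -0.35 (95% confidence interval -0.65 to -0.06, adjusted p = 0.13), which did not pass. The ratio of the RPKM of Tnfaip3 to that of Cyld was 0.465 and 0.421 in -R, 0.713 and 0.636 in +R and, with LE added, 0.413 and 0.506. Whether LE acted differently on the members was not tested, since each gene was compared only with itself.

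**Figure D3:**
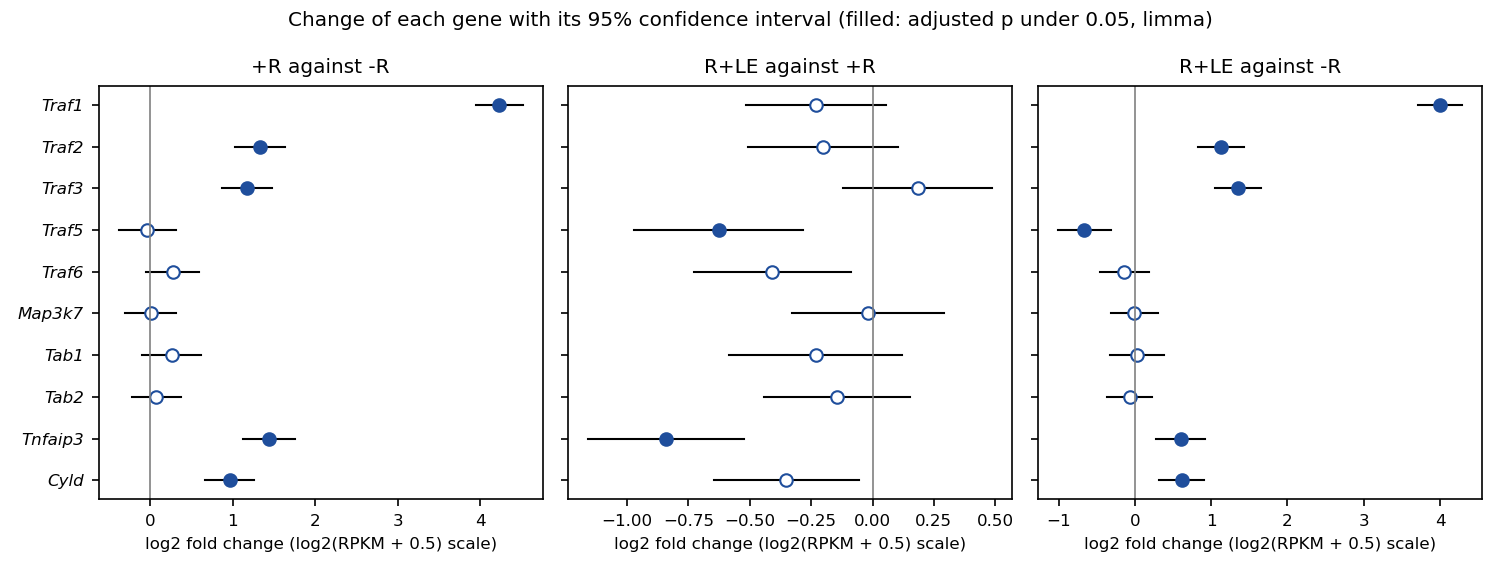
Log2 fold change of each gene (horizontal axes, on the log2(RPKM + 0.5) scale, with different ranges) in 3 panels, RANKL against M-CSF alone, LE against RANKL, and LE with RANKL against M-CSF alone. Bars are 95% confidence intervals and filled points have an adjusted p below 0.05 in limma. Filled points are 5, 2 and 6 of the 10 genes, and the intervals of Map3k7, Tab1 and Tab2 span 0 in each panel.

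Across the module, LE lowered 2 of the 10 genes against RANKL alone, Traf5 and Tnfaip3, and raised 0. At the same threshold 12% of all genes tested passed, 6.86% as lower and 5.19% as higher. None of the 10 both passed and reached a 2-fold change with LE, where 3.23% of all genes did both. The median log2 fold change was -0.23, beside -0.05 for all genes tested, and the R+LE libraries lay below both +R libraries for 7 of the 10 and above them for 1, against 29.5% and 19.5% of all genes. The RANKL and LE comparisons both use the +R libraries and are not independent of each other. In R+LE against -R, 6 of the 10 passed, with Traf1, Traf2, Traf3, Tnfaip3 and Cyld higher and Traf5 lower, against 34.3% of all genes tested (15.3% higher and 19% lower). The balance of those calls over all genes depended on the scaling, since 44.6% of them were higher in R+LE, but 53.9% with Rn45s left out of the depth, 53.1% with median centring and 54.3% with quantile normalization. In R+LE against +R the share went from 43.1% to 51.6% with median centring and 50.4% with quantile normalization. The 8 osteoclast markers moved in all 3 comparisons. Of the 6 macrophage markers none passed in R+LE against +R, and 5 fell in +R against -R. The Rn45s share was higher in both RANKL-treated groups than in -R. The part of these markers and of the Rn45s share in the differences was not tested.

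The order of the 10 genes by level per length also changed. In -R, Tab2 was highest at 27.1 ± 2.89 RPKM (SD, n = 2), followed by Map3k7 and Traf6, and Traf1 was the lowest. Only Tab1 and Cyld, which stood next to each other in that order, overlapped between libraries. In +R the order began with Traf1, Tab2 and Traf2, and Traf3, Map3k7 and Cyld could not be separated beyond their spread. In R+LE it began with Traf1, Tab2, Traf2 and Traf3, of which Traf2 and Traf3 overlapped, as did Traf6 and Tab1 lower down. Traf5 was the lowest in both RANKL-treated groups.

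The genes whose profile over the 6 libraries was closest to that of each member past 2-fold were found by Euclidean distance of mean-centred log2(RPKM + 0.5), as a description without a test. For Traf1 they were Cavin3, a caveola coat gene, and Mycl, a MYC family transcription factor gene, at distances of 0.28 and 0.47. Cavin3 was at a mean of 0.533 RPKM in -R, against 15.8 in +R and, with LE, 14.7, and Mycl at 0.099, 11.2 and 11.1. For Tnfaip3 they were Frat2 and Net1, at distances of 0.16 and 0.19, and Net1, a guanine nucleotide exchange factor gene for RhoA, was at 2.31, 7.19 and 3.99 RPKM in the same order. For Traf2 they were Impdh2 and Tpm1 (0.13 and 0.14), and for Traf3 Trim2 and Rin1 (0.23 and 0.23). Some of these genes were very low in -R. Frat2 was at 0.151, 1.30 and 0.56 RPKM in the same order, and Trim2 at 0.22, 1.03 and 1.35. The added 0.5 shrinks the log2 change of genes this low, Mycl included, so a small distance does not mean a like ratio of RPKM.

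Around these 10 genes, a list of 51 other genes of receptor, TRAF and TAK1 signalling was examined, all of which passed the filter. With RANKL, 10 rose and 12 fell, or 43.1% against 45.4% of all genes tested, and the median log2 fold change was -0.07. Of the 5 receptors, 3 fell and 0 rose, where 21.5% of all genes tested fell and 23.9% rose. Tnfrsf1b, which encodes the second TNF receptor, went from 25.9 and 26.4 RPKM in -R to 7.08 and 5.68 in +R (log2 fold change -1.96), and Ltbr, the lymphotoxin β receptor gene, fell by 0.93 on the log2 scale. Tnfrsf11a, which encodes RANK itself, was at 60.1 and 67.8 RPKM in -R, 76.4 and 74.1 in +R and, with LE added, 68.4 and 61.8, and its change of 0.24 with RANKL did not pass (adjusted p = 0.203 in limma).

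The ubiquitin ligases that TRAF1 and TRAF2 recruit, cIAP1 and cIAP2, are encoded by Birc2 and Birc3. Birc3 went from 5.16 and 6.39 RPKM in -R to 51.8 and 47.7 in +R, a log2 fold change of 3.01, and stood at 41.9 and 42.2 in R+LE. Birc2 rose from 2.99 and 3.42 RPKM to 9.52 and 9.66 (log2 fold change 1.45) and was at 5.40 and 5.81 in R+LE. Rnf31, the catalytic subunit gene of the linear ubiquitin ligase, fell by 0.51 on the log2 scale, a call that was lost without +R replicate 1 (adjusted p = 0.0649 in limma) or -R replicate 1 (0.0645). The other 6 of the 9 ubiquitin ligase and conjugating enzyme genes did not pass, so 33.3% of this group passed against 45.4% of all genes tested. Tank, a TRAF-binding protein gene, was at 14.9 and 15.4 RPKM in -R, 39.8 and 36.4 in +R and, with LE added, 28.8 and 22.7, with a log2 fold change of 1.30 with RANKL.

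Among 6 genes of the IKK and NIK group downstream, not all of which encode kinases, 1 rose and 3 fell. Map3k14, which encodes NIK, rose by a log2 fold change of 0.66, and the largest falls were those of Ikbke and Ikbkg, by 1.58 and 0.48. Of 7 genes of the MAP kinase cascade, Map2k6 rose (0.89), Mapk9 fell (-0.38) and 5 did not pass. Among 10 partners of A20 and other brakes, 3 rose and 1 fell. Of all genes tested, 23.9% rose and 21.5% fell at the same threshold, which is the background for each of these counts. Nfkbia, the IκBα gene, rose by 1.80, Tnip1, whose product ABIN1 binds A20, rose by 1.69, and Usp18, a deconjugating enzyme gene of the interferon response, fell by 1.66. Close to the receptors, Tifa and Sqstm1 fell by 1.53 and 1.10, and Prkci and Traf3ip2 rose by 0.50 and 0.46. Each of these had an adjusted p below 0.05 in limma, but the smaller changes lost it under some alternatives. For Traf3ip2 the adjusted p was 0.331 without -R replicate 1, 0.176 without +R replicate 1 and 0.141 without a filter, and for Prkci it was 0.136 without -R replicate 1. For Map3k14 it was 0.0711 without -R replicate 1 and 0.0754 without a filter, and for Ikbkg it was 0.143 without +R replicate 2 and 0.101 without -R replicate 2. Mapk9 did not pass when any 1 of the 4 libraries compared was left out (0.0884 to 0.153), nor with Rn45s left out of the depth (0.0591) or without a variance trend (0.0509).

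With LE, 5 of the 51 genes passed, or 9.80% against 12% of all genes tested, 3 as higher and 2 as lower, none by 2-fold. Those lower were Birc2, at -0.73 on the log2 scale (adjusted p = 0.00265 in limma), and Tank, at -0.56 (adjusted p = 0.0205), which RANKL had raised. Those higher were Ikbke (0.79), Tnfrsf1b (0.70) and Tifa (0.64), which RANKL had lowered. Both comparisons use the +R libraries, so these opposite signs are not independent results. Birc2 and Ikbke passed under every alternative tried, and the other 3 did not. Without a filter the adjusted p was 0.0544 for Tnfrsf1b, 0.156 for Tifa and 0.0983 for Tank in limma. Tnfrsf1b also did not pass without +R replicate 2 (0.0703). Tifa did not pass without +R replicate 2, where its log2 fold change was 0.40 (adjusted p = 0.25), without R+LE replicate 1 (0.0793), without -R replicate 1 or -R replicate 2 (0.0521 and 0.0526) or with only the compared groups fitted (0.0538). Tank did not pass without +R replicate 1 (0.135), R+LE replicate 2 (0.111), -R replicate 1 (0.0625) or -R replicate 2 (0.0629), nor with only the compared groups fitted (0.0648). Birc3, Tnip1 and Nfkbia had log2 fold changes with LE of -0.24, -0.09 and -0.16, with 95% confidence intervals from -0.55 to 0.07, from -0.38 to 0.19 and from -0.68 to 0.37.

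**Figure D4:**
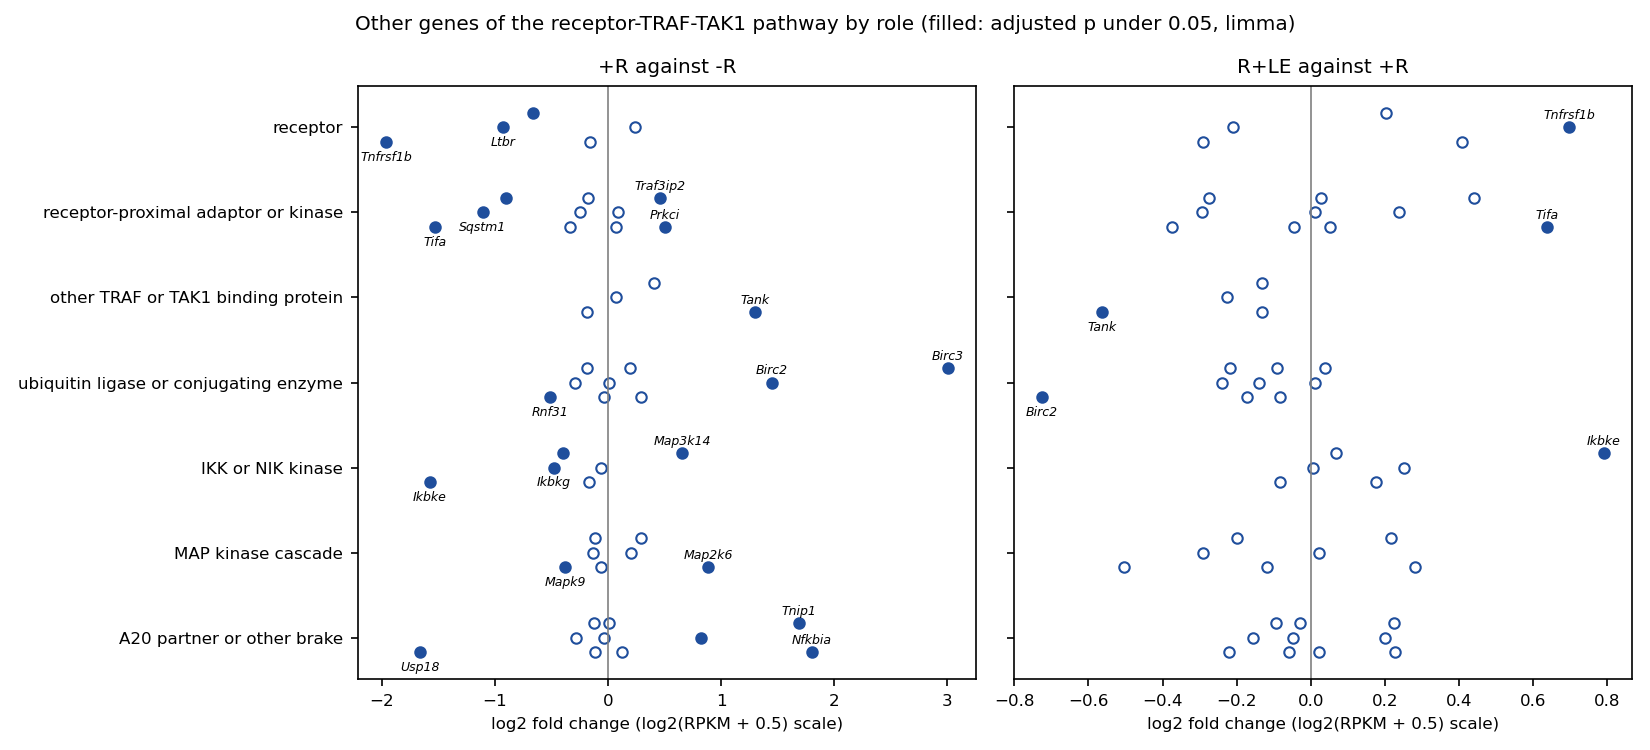
Log2 fold change of the 51 other pathway genes (horizontal axes, log2(RPKM + 0.5) scale, with different ranges) by role, for +R against -R and R+LE against +R. Each point is a gene, filled where the adjusted p was below 0.05 in limma, and the genes named in the text are labelled. Filled points number 22 on the left, with Birc3 farthest to the right at 3.01, and 5 on the right, where no gene reaches 1 in either direction.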

How the data were processed

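Groups and replicate numbers came from the sample labels, which do not say whether replicates were separate cultures. The p-values therefore measure the spread between these libraries only. For each gene, limma moderated that spread by empirical Bayes, drawing it toward the spread of other genes of like level. Standard errors, confidence intervals and p-values from limma thus do not rest on the gene's own libraries alone. The authors aligned paired reads to mm10 (TopHat in the methods of the study, HISAT2 in the submitters' processing notes), counted exon reads with HOMER on either strand for 1 transcript per gene, and deposited RPKM under column titles that say FPKM. Date-like symbols (26) were restored from transcript identifiers. Whole reads were recovered from RPKM and length, within 0.15 of a whole number for 100% of low values checked. Genes averaging 0.5 RPKM or more were fitted as log2(RPKM + 0.5) with limma 3.58.1 in R 4.3.3 over all 6 libraries, with a variance trend. The fit was also run on simulated counts, with the same dispersion for every gene and far fewer changed genes than were called here. That run does not measure the errors of the fit on these data. With 2 libraries against 2, an exact permutation test of a gene cannot go under p = 0.333. The 10 genes and the pathway and marker lists were chosen with earlier results of these data known. From the pathway list, up to 2 genes that rose and 2 that fell most in each role were named, and other genes after their values were seen. The κB consensus and TGANTCA were searched in RefSeq promoters, of which 9 of 10 matched. Python 3.11.15 made tables and figures.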

Additional observations from a re-analysis of the deposited data

How the results depend on the processing

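In +R against -R and in R+LE against -R, the same 5 and 6 of the 10 genes passed under all 17 alternatives. In R+LE against +R, 2 passed, but 1 without a filter on low values, where 18427 genes were tested, and between 1 and 3 with a replicate left out (1 without +R replicate 2 or R+LE replicate 2). Of the 51 pathway genes 5 passed there, but 2 without a filter, 3 when only the compared groups were fitted, and 3 to 5 with a replicate left out (3 without +R replicate 2, -R replicate 1 or -R replicate 2), and 7 with median centring, quantile normalization or voom on recovered reads. Over all genes, 1397 passed in R+LE against +R and 581 without a filter, and 3974 in R+LE against -R and 2455 and 2611 without -R replicate 1 and -R replicate 2. The cause of these shifts was not tested. The labels do not say what a shared replicate number stands for, and deviations from group means correlated at -0.05 between -R and +R, 0.11 between -R and R+LE and 0.25 between +R and R+LE, so the numbers were not taken to pair the libraries, although +R and R+LE libraries of the same number deviated together to some extent. With the replicate number as a block, R+LE against +R gave 1792 genes in place of 1397, 2 of the 10 genes as before and 7 pathway genes. Some differences that did not pass changed sign. Traf5 with RANKL was 0.01509 with Rn45s left out of the depth. Map3k7 with LE was 0.03315 with median centring and 0.04164 with quantile normalization, and in R+LE against -R it was 0.06298, 0.04487 and 0.05459 with Rn45s left out, median centring and quantile normalization. Tab2 in R+LE against -R was 0.005192 with Rn45s left out and 0.04221 with quantile normalization. With a replicate left out, log2 fold changes ranged from -0.138 to 0.0642 for Traf5, -0.143 to 0.16 for Map3k7 and -0.031 to 0.183 for Tab2 with RANKL, from -0.169 to 0.134 for Map3k7 and -0.47 to 0.00873 for Tab1 with LE, and from -0.0767 to 0.0578 for Map3k7, -0.212 to 0.267 for Tab1, -0.176 to 0.0375 for Tab2 and -0.305 to 0.0291 for Traf6 in R+LE against -R.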
